A study of Danio rerio with 16 samples.

Results

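These data describe 10 zebrafish genes for the making, packing and re-uptake of neurotransmitters. They are chata and slc18a3a for acetylcholine, th, ddc, tph2 and slc6a4a for dopamine and serotonin, gad1b and gad2 for GABA, slc17a6b for glutamate and slc6a5 for glycine. They were matched by gene symbol, and the counts of their transcripts were summed by gene. All 10 were found among 31812 genes, and all 10 were among the 24462 genes with enough counts to test. RNA came from whole wild-type larvae of the WIK strain, kept at 28.5 °C and taken at 5 days post-fertilization (dpf). The TP group was exposed to 1.6 µM triptolide for 6 h. The vehicle group received no TP for the same time, and the paper names its vehicle as DMSO. Each group had 8 pools, and each pool held the 30 larvae of 1 dish of 50 ml. The p-values below measure the spread between these dishes. In whole larvae, fewer cells of a type and less RNA per cell cannot be told apart.

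Neurons are often classed by the transmitter they release, which takes enzymes to make it, a vesicular transporter to pack it and, for most, a plasma membrane transporter to take it or its precursor back up. Some of these proteins serve several transmitters. Choline acetyltransferase makes acetylcholine, tyrosine hydroxylase and tryptophan hydroxylase take the rate-limiting steps towards dopamine and serotonin, and glutamate decarboxylase makes GABA. The expression of these genes is switched on and kept on by transcription factors that differ between neuron types. Triptolide is a plant diterpenoid known to block transcription by RNA polymerase II through the XPB subunit of TFIIH.

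Levels are given as CPM, the counts of a gene divided by the library total and multiplied by 1000000. A CPM is thus a share of the library and not an amount of RNA per larva. Higher, lower and fell refer to such shares. Totals ran from 26631852 to 41093922 counts in TP libraries and from 19679120 to 75490916 counts in vehicle libraries. Ribosomal and mitochondrial transcripts took 31.08% to 34.71% of the counts in TP libraries and 24.77% to 30.18% in vehicle libraries. With library totals as the scaling, the median log2 fold change of all tested genes (TP over vehicle) was -0.35, and with TMM factors, which centre most genes on no change, it was -0.00107. Libraries are numbered by the last digit of their titles, 1 to 8 in each group. Vehicle library 1 stood apart from the others. A list of 23 neuron markers summed to 1596 CPM there and to 1033 CPM in vehicle library 2, against 671 to 859 CPM in the other 6 vehicle libraries, while the TP libraries held 526 to 887 CPM. Values without vehicle library 1 are therefore given where they matter. A gene was called when its adjusted p from edgeR, over all genes tested, was 0.01 or less.

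After 6 h of TP, 7 of the 10 transmitter genes were down-regulated, 0 were up-regulated and 3 were not called (edgeR). The 7 were chata, slc18a3a, th, slc6a4a, gad1b, gad2 and slc17a6b. Of all genes, 41.9% were called lower and 4.59% higher at the same threshold. At an unadjusted p under 0.05, 8 of the 10 were lower and 0 higher. The share of all genes at that unadjusted threshold was not counted. With TMM factors 6 of the 10 were lower and 1, tph2, was higher, where 16.5% of all genes were lower and 15.9% higher. DESeq2 gave the same counts as TMM, 6 lower and 1 higher, and limma gave 6 lower and 0 higher. The shares of all genes called by DESeq2 and by limma were not counted. In 5 of the 10, namely chata, slc18a3a, th, slc6a4a and gad1b, every TP library lay under every vehicle library, which held for 20.9% of all genes. The median log2 fold change over the 10 was -0.65, or -0.30 relative to the median of all genes. The fold changes ranged from -1.67 for chata to 0.18 for tph2.

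**Figure D1:**
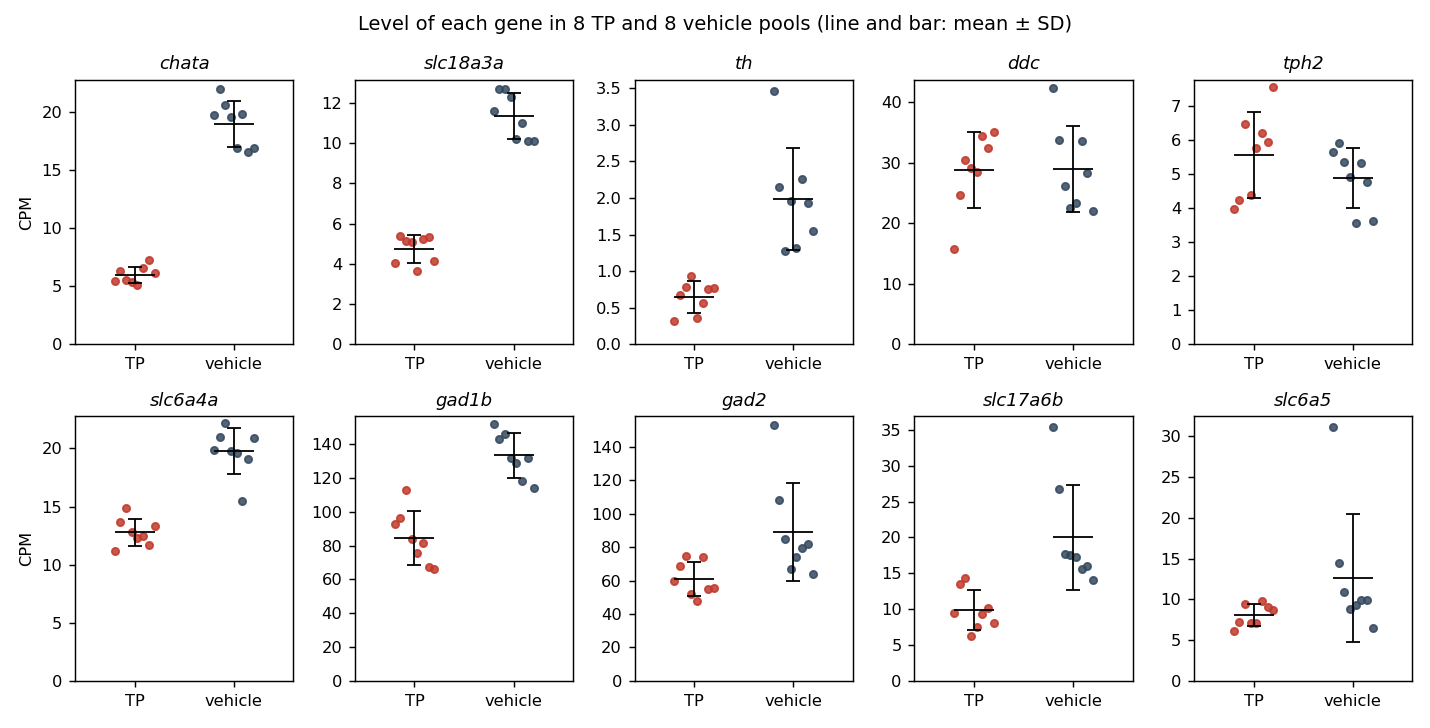
Level of each of the 10 genes in CPM (y axis from 0) in 8 TP and 8 vehicle pools. Points are pools, the long line is the mean and the bar is 1 SD. chata lies between 5.11 and 7.21 CPM in TP pools and between 16.5 and 21.9 CPM in vehicle pools, and the highest vehicle point of slc6a5, 31.1 CPM, is vehicle library 1.

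The acetylcholine genes were among those that fell most. chata, which encodes choline acetyltransferase (ENSDARG00000015854, chromosome 13 from 29278909 to 29290881 on GRCz10), had 5.11 CPM in the lowest, a median of 5.85 and 7.21 in the highest TP library, against 16.5, 19.6 and 21.9 CPM in vehicle libraries. The groups were far apart, with no TP library within reach of the vehicle range. Its mean was 5.95 ± 0.724 CPM in TP and 19 ± 1.99 CPM in vehicle larvae (SD, n = 8 each), a log2 fold change of -1.67 (standard error, SE, 0.09, edgeR adjusted p = 1.6e-11). slc18a3a, the vesicular acetylcholine transporter that loads the product of chata into synaptic vesicles (ENSDARG00000006356), lies next to it on chromosome 13 from 29291599 to 29294004. The gap between the gene models is 717 bases, and they do not overlap. slc18a3a ran from 3.62 CPM, with a median of 5.09, to 5.36 CPM in TP libraries, against 10.1, 11.3 and 12.7 CPM in vehicle libraries. Again the groups did not overlap, and the log2 fold change was -1.26 (SE 0.10, edgeR adjusted p = 3.1e-09). With TMM factors chata was at -1.33 and slc18a3a at -0.92 (adjusted p = 6.8e-11 and 2.6e-08 from edgeR). Leaving out any 1 library moved chata between -1.72 and -1.64 and slc18a3a between -1.29 and -1.21.

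The monoamine genes went different ways. th, tyrosine hydroxylase, which makes L-DOPA from tyrosine (ENSDARG00000030621, chromosome 25 from 23957793 to 23976952), had the lowest levels of the 10. Its counts were 10 to 38 in TP libraries and 38 to 162 in vehicle libraries. It ran from 0.32 CPM, with a median of 0.714, to 0.935 CPM in TP libraries, against 1.28, 1.95 and 3.46 CPM in vehicle libraries, so the groups did not overlap. The log2 fold change of th was -1.61 (SE 0.24, edgeR adjusted p = 1.2e-05), and it was -1.45 without vehicle library 1, which held the value of 3.46 CPM.

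ddc, aromatic L-amino acid decarboxylase, takes the next step for both dopamine and serotonin and in mammals is also made outside the nervous system (ENSDARG00000016494, chromosome 16 from 8384813 to 8429020). Its TP libraries ran from 15.7 CPM, with a median of 29.8, to 35.1 CPM, against 22, 27.3 and 42.4 CPM in vehicle libraries. The ranges overlapped for most of their width, with TP library 1 the lowest and vehicle library 1 the highest of all. The log2 fold change was -0.01 (SE 0.15, edgeR adjusted p = 0.96), and the sign turned with the scaling, to 0.34 with TMM factors (SE 0.13, adjusted p = 0.032).

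tph2, the tryptophan hydroxylase of serotonergic neurons (ENSDARG00000057239), lies on chromosome 18 from 17000698 to 17011990. It had 3.96 CPM in the lowest, a median of 5.85 and 7.57 in the highest TP library, against 3.57, 5.11 and 5.91 CPM in vehicle libraries. The ranges overlapped, and 4 TP libraries were above the highest vehicle library. Its log2 fold change was 0.18 (SE 0.14, edgeR adjusted p = 0.28). With TMM factors it was 0.54 (SE 0.12, adjusted p = 0.0012), and with DESeq2 0.54 (adjusted p = 1.7e-04). Among the libraries whose titles end in 5 to 8 tph2 was at 0.57 (adjusted p = 0.0065 from edgeR), whereas among those ending in 1 to 4 it was at -0.19 (adjusted p = 0.38).

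slc6a4a, the plasma membrane transporter that takes serotonin back up (ENSDARG00000061165, chromosome 15 from 28676149 to 28685626), ran from 11.2 CPM, with a median of 12.7, to 14.9 CPM in TP libraries, against 15.5, 19.8 and 22.2 CPM in vehicle libraries. The ranges did not meet, and the lowest vehicle value belonged to library 6, with the next at 19.1 CPM. Its fold change on the log2 scale was -0.62 (SE 0.08, edgeR adjusted p = 1.9e-06). With TMM factors it was -0.28 (SE 0.07, adjusted p = 0.0028). Both slc6a4a and tph2 are made by the serotonergic neurons of the raphe, and of this pair slc6a4a was called lower and tph2 was not.

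Both GABA enzymes were called lower with library totals, and the call of gad2 depended on the processing. gad1b, which encodes the glutamate decarboxylase GAD67 (ENSDARG00000027419, chromosome 6 from 3666931 to 3701293), was the most abundant of the 10. It ran from 66.1 CPM, with a median of 82.6, to 113 CPM in TP libraries, against 114, 132 and 152 CPM in vehicle libraries. The highest TP value and the lowest vehicle value nearly touched without overlapping. Its log2 fold change was -0.66 (SE 0.10, edgeR adjusted p = 1.4e-05), and -0.31 with TMM factors (SE 0.09, adjusted p = 0.0072).

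gad2, which encodes GAD65, the form linked to synaptic vesicles in mammals (ENSDARG00000015537, chromosome 24 from 6103818 to 6129604), ran from 48 CPM, with a median of 57.8, to 74.9 CPM in TP libraries. In vehicle libraries it was at 64.1, 80.9 and 153 CPM, so the ranges overlapped. Vehicle library 1 held 153 and library 2 held 108 CPM, with the next at 85 CPM. The log2 fold change was -0.55 (SE 0.15, edgeR adjusted p = 0.0045), and -0.39 (adjusted p = 0.006) without vehicle library 1. The call ended at -0.50 (adjusted p = 0.011) without vehicle library 2 or without TP library 5, and at -0.30 (adjusted p = 0.019) without vehicle libraries 1 and 2. It also ended with TMM factors, at -0.18 (adjusted p = 0.22).

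slc17a6b, the vesicular glutamate transporter VGLUT2 and the marker of many excitatory neurons of brainstem, midbrain and spinal cord (ENSDARG00000041150, chromosome 7 from 32544546 to 32562465), was also down-regulated. It ran from 6.3 CPM, with a median of 9.41, to 14.4 CPM in TP libraries, against 14, 17.4 and 35.4 CPM in vehicle libraries. The ranges met only at their edges, where 1 TP library was above the lowest vehicle library. Vehicle libraries 1 and 2, at 35.4 and 26.8 CPM, were well above the next at 17.7 CPM. The log2 fold change was -1.03 (SE 0.19, edgeR adjusted p = 1.5e-04), -0.86 (SE 0.16, adjusted p = 1.3e-04) without vehicle library 1, and -0.73 (adjusted p = 3.8e-04) without libraries 1 and 2. With TMM factors it was -0.66 (adjusted p = 0.0018).

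slc6a5, the glycine transporter GlyT2 of glycinergic terminals (ENSDARG00000067964), shares chromosome 7 with slc17a6b and lies from 16977309 to 16995846. It had 6.08 CPM in the lowest, a median of 7.96 and 9.79 in the highest TP library, against 6.47, 9.94 and 31.1 CPM in vehicle libraries. Vehicle library 1 held the value of 31.1 and library 2 the next, 14.4 CPM, and the other 6 were between 6.47 and 10.9 CPM. The log2 fold change of -0.65 was not called (SE 0.24, edgeR adjusted p = 0.024). Without vehicle library 1 it was -0.31 (SE 0.14, adjusted p = 0.057), whereas without vehicle library 8, the lowest, it was -0.75 and called (adjusted p = 0.0085). The fold change was -1.13 (adjusted p = 0.022) among libraries whose titles end in 1 to 4 and -0.04 (adjusted p = 0.85) among those ending in 5 to 8.

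**Figure D2:**
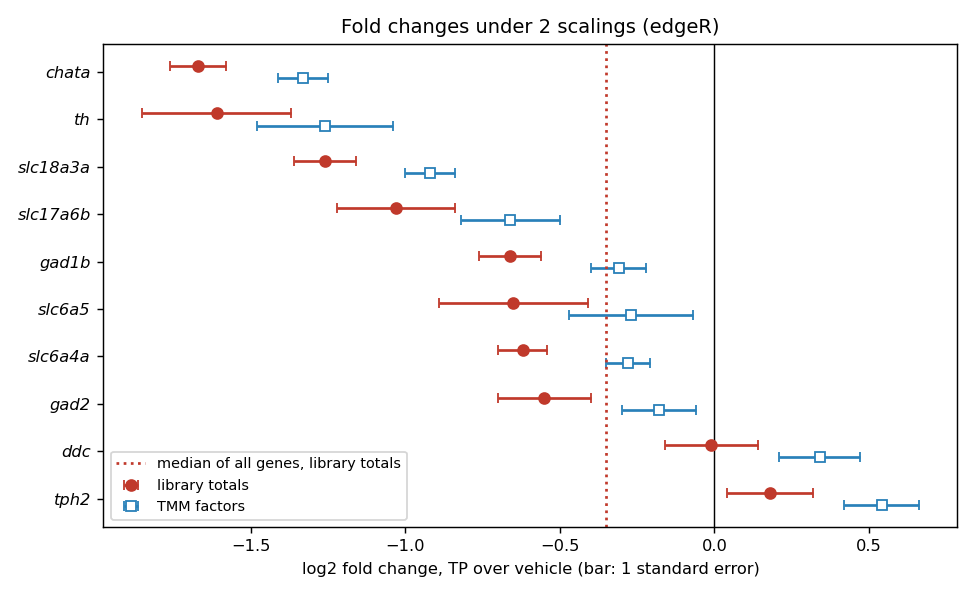
Log2 fold change of each of the 10 genes, TP over vehicle, on the x axis with bars of 1 standard error from edgeR. Filled circles use library totals, open squares TMM factors, and the dotted line is the median of all genes with library totals, -0.35. With library totals 9 of the 10 genes lie at or below 0 and ddc and tph2 are to the right of the dotted line. With TMM factors ddc and tph2 lie at 0.34 and 0.54.

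Vehicle library 1 was not equally high in all 10 genes. Relative to the median of the other 7 vehicle libraries it held 3.14 times the level of slc6a5, 2.06 times that of slc17a6b, 1.92 times that of gad2, 1.79 times that of th and 1.61 times that of ddc. The ratio was 1.15 for gad1b and for tph2, 1.05 for slc18a3a, 1.01 for chata and 1 for slc6a4a. The summed neuron markers were at 2.18 times, the radial glia markers at 1.59 times, the oligodendrocyte markers at 1.32 times, the liver markers at 0.948 times and the muscle markers at 0.91 times the median of the others. Their part in the fold changes was not tested beyond leaving the library out. Without it the calls of chata, slc18a3a, th, slc6a4a, gad1b, gad2 and slc17a6b remained, with log2 fold changes of -1.67, -1.26, -1.45, -0.62, -0.63, -0.39 and -0.86 (edgeR, adjusted p at or under 0.006 for each).

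**Figure D3:**
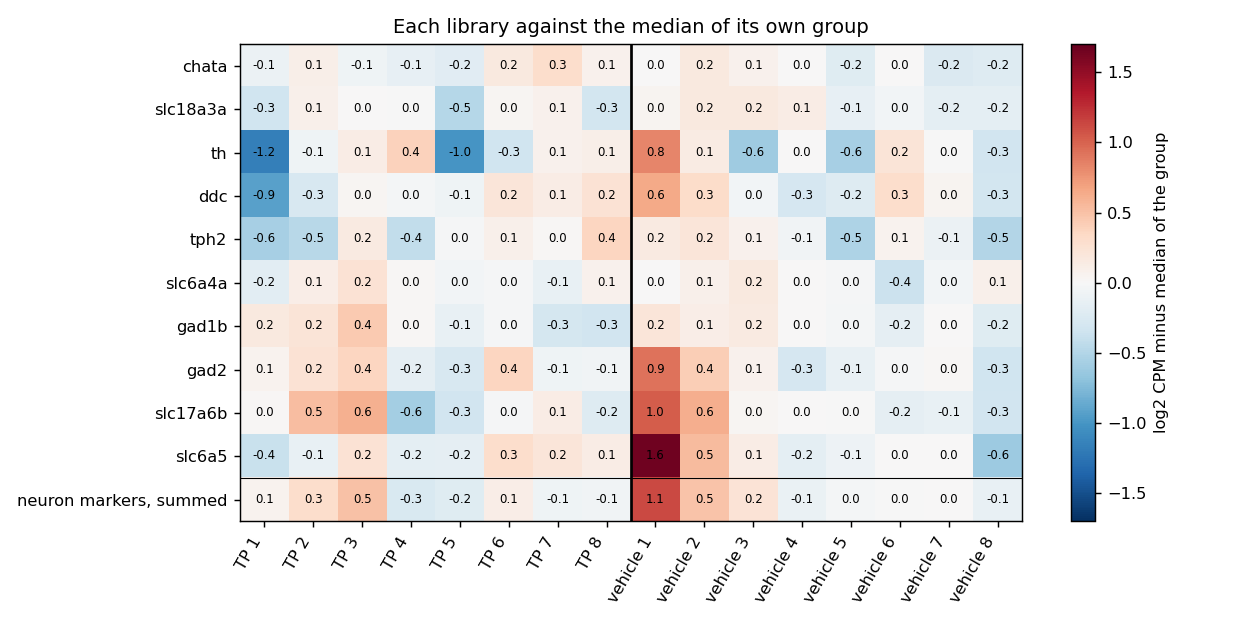
Log2 CPM of each gene in each library minus the median of that library's own group, with the summed neuron markers in the last line. Columns are libraries, TP left of vehicle, red is above and blue below the group's median, and the printed value is the difference. Vehicle library 1 is 1.6 above the vehicle median for slc6a5 and 1.1 above it for the neuron markers, and at 0.0 for chata, slc18a3a and slc6a4a.

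A ratio of 2 genes in the same library does not depend on how libraries are scaled, and it shows whether the genes of a pair changed unequally. Of 9 ratios compared, 4 differed between TP and vehicle larvae at the threshold of 0.01 (2-sided exact permutation test, Benjamini-Hochberg over the 9, with 1.6e-04 the smallest p it allows). In 3 of them the groups did not overlap. The ratio of th to ddc, the enzymes of consecutive steps to dopamine, ran from 0.0136 over a median of 0.0234 to 0.033 in TP libraries, against 0.0498, 0.0692 and 0.0885 in vehicle libraries. It was lower in all 8 TP libraries than in any vehicle library, by -1.58 on the log2 scale (adjusted p = 4.7e-04, exact permutation test). The ratio of th to tph2 sets an enzyme for dopamine against an enzyme for serotonin. It leaves out tph1a and tph1b, the paralogs of tph2. The ratio was 0.0667, 0.114 and 0.218 in TP libraries, against 0.244, 0.407 and 0.613 in vehicle libraries. That was a difference of -1.77 (adjusted p = 4.7e-04, exact permutation test). The ratios of th to ddc and to tph2 share th, so they are not independent of each other.

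Genes known to be used by the same neuron type also changed unequally in the RNA of whole larvae. The cells that held their transcripts were not identified. The ratio of chata to slc18a3a was 1.05, 1.3 and 1.49 (lowest, median and highest) in TP libraries, against 1.58, 1.66 and 1.8 in vehicle libraries. It was thus lower in every TP library, with a mean log2 ratio of 0.33 ± 0.18 in TP and 0.74 ± 0.06 in vehicle libraries (SD, n = 8 each). The difference was -0.41, a fold of 0.754 (adjusted p = 4.7e-04, exact permutation test). For the serotonergic pair the ratio of tph2 to slc6a4a was 0.31, 0.452 and 0.57 in TP libraries, against 0.175, 0.25 and 0.345 in vehicle libraries. It was higher in TP larvae by 0.79 (a fold of 1.73, adjusted p = 0.001, exact permutation test), with 1 vehicle library above 2 TP libraries. The difference was 0.44 among libraries whose titles end in 1 to 4 and 1.15 among those ending in 5 to 8.

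For the other pairs no difference was called. The ratio of gad1b to gad2 had a median of 1.45 in TP and 1.66 in vehicle libraries, a log2 difference of -0.16 (adjusted p = 0.27, exact permutation test). That of tph2 to ddc had medians of 0.194 in TP and 0.168 in vehicle libraries, a difference of 0.19 (adjusted p = 0.16, exact permutation test). The ratio of gad1b to slc17a6b, an inhibitory against an excitatory gene, had medians of 8.44 in TP and 7.52 in vehicle libraries, with a difference of 0.33 (adjusted p = 0.1, exact permutation test). The ratio of slc6a5 to slc17a6b had medians of 0.918 in TP and 0.578 in vehicle libraries and a difference of 0.50 (adjusted p = 0.022, exact permutation test). That last ratio passed the threshold without vehicle library 1, at 0.59 (adjusted p = 0.0084), and without TP library 2, at 0.60 (adjusted p = 0.005, exact permutation tests). slc6a5 to gad1b had medians of 0.0896 in TP and 0.0753 in vehicle libraries and a difference of 0.17 (adjusted p = 0.5, exact permutation test).

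**Figure D4:**
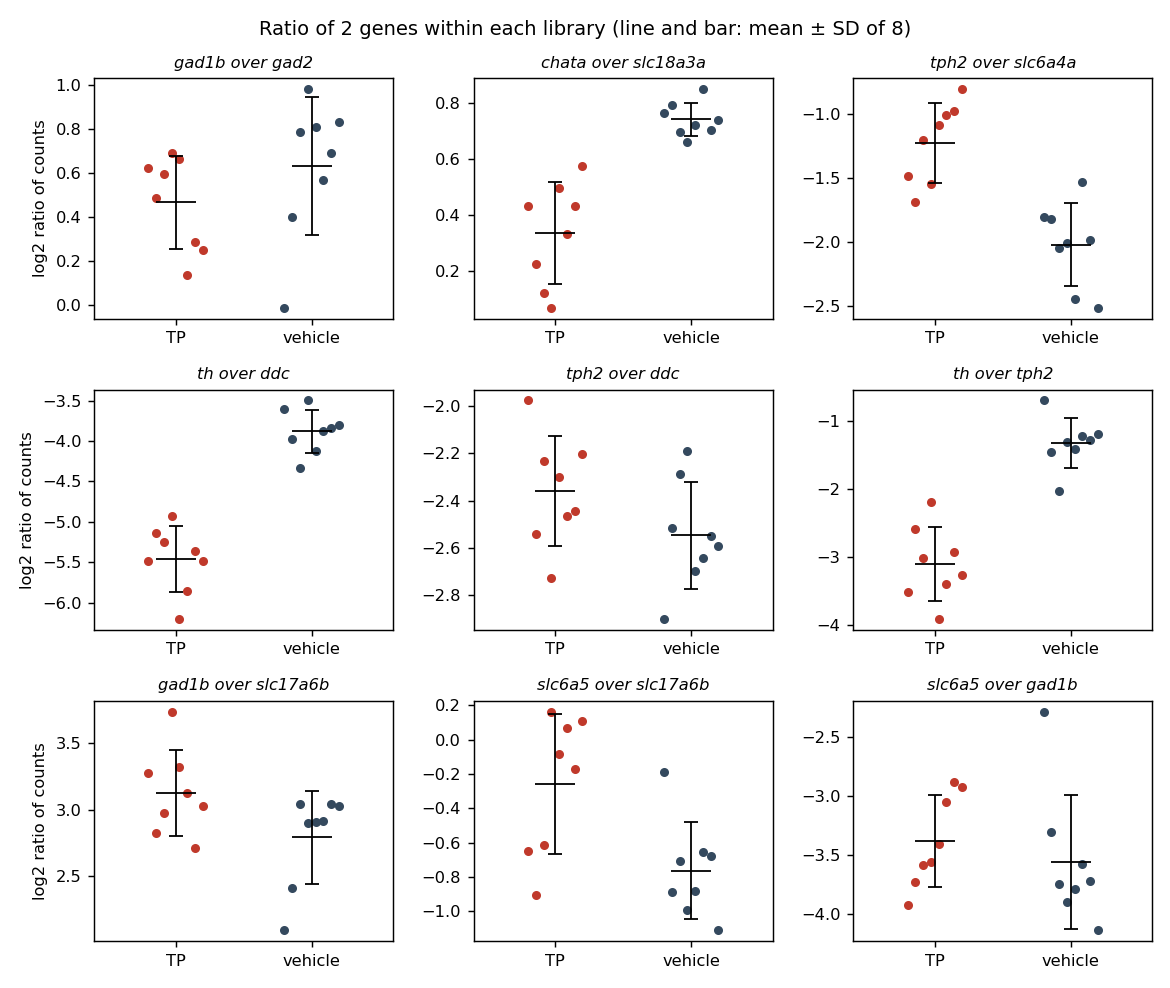
Log2 of the ratio of counts of 2 genes in the same library for the 9 pairs, with TP left of vehicle. Points are libraries, the long line is the mean and the bar is 1 SD of 8. The groups do not overlap for chata over slc18a3a, th over ddc and th over tph2, and for tph2 over slc6a4a 1 vehicle library lies above 2 TP libraries.

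Levels of different genes are compared per length, as CPM per kilobase of transcript. On that scale gad1b led in both groups, with 36.1 ± 7.04 in TP and 56.5 ± 5.72 in vehicle larvae (SD, n = 8 each). gad2 came next with 14 ± 2.64 in TP and 21.4 ± 7.15 in vehicle larvae, and then slc6a4a with 7.77 ± 0.97 in TP and 12 ± 1.42 in vehicle larvae. These first 3 were separate from each other in both groups, with no overlap of neighbouring ranges. In TP larvae the order then was ddc (7.41 ± 1.61), slc17a6b (4.92 ± 1.42), chata (2.96 ± 0.356), slc6a5 (2.66 ± 0.444), tph2 (2.61 ± 0.589) and slc18a3a (1.97 ± 0.287), where the ranges of neighbours overlapped from slc6a4a on. In vehicle larvae it was slc17a6b (9.99 ± 3.71), chata (9.39 ± 0.972) and ddc (7.37 ± 1.8), whose neighbouring ranges overlapped, and then slc18a3a (4.71 ± 0.475), slc6a5 (4.17 ± 2.57) and tph2 (2.3 ± 0.414), which again overlapped with their neighbours. th was last in both, with 0.437 ± 0.146 in TP and 1.35 ± 0.474 in vehicle larvae. ddc thus stood above chata in TP larvae, where their ranges were separate, and below it in vehicle larvae, where they overlapped.

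The 10 genes have 23 annotated transcripts, all of which could be tested. Of these 15 were lower and 0 higher (edgeR over all transcripts), where 36.7% of all transcripts were lower. All transcripts of chata, slc17a6b and gad1b were called lower. The log2 fold changes were -1.79 and -1.53 for chata and -1.07, -1.05 and -0.94 for slc17a6b (edgeR, adjusted p at or under 0.0029 for each). For gad1b they were -0.65 and -0.66 in the 2 long transcripts and -0.83 and -0.44 in the short ones (edgeR, adjusted p at or under 0.0084 for each). The 3 transcripts of tph2 had log2 fold changes of 0.09, 0.17 and 0.27, none of them called. How reads common to several transcripts were placed is not known.

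The share of a gene's counts that fell on each transcript was compared in 18 tests, which were added after the counts had been seen, and 0 of them reached an adjusted p of 0.01. The closest were short transcripts with few reads. ENSDART00000141436 of slc6a4a, 540 bases long, took 1.7% of the gene's counts in TP and 3.41% in vehicle larvae (adjusted p = 0.022, exact permutation test), with 2 to 12 counts in TP and 8 to 60 in vehicle libraries. ENSDART00000147427 of gad2, 511 bases long, took 1.2% in TP and 1.89% in vehicle larvae (adjusted p = 0.022, exact permutation test).

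A wider list held 62 further genes that make, pack, take up or break down these transmitters, and 53 of them were tested. Of these 28 were lower and 0 higher (edgeR), or 52.8% lower against the 41.9% of all genes. At an unadjusted p under 0.05 there were 36 lower and 1 higher, with no share of all genes counted at that threshold. With TMM factors 16 were lower and 6 higher, where 16.5% of all genes were lower and 15.9% higher. The median log2 fold change was -0.57, or -0.22 relative to all genes. By transmitter, 1 of 2 genes was lower for acetylcholine, 8 of 18 for monoamines, 4 of 9 for GABA, 13 of 21 for glutamate and 2 of 3 for glycine.

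Among the cholinergic genes slc5a7a, the choline transporter that supplies chata with substrate, was at 3.68 ± 0.422 CPM in TP and 7.92 ± 2.76 CPM in vehicle larvae (SD, n = 8), a log2 fold change of -1.11 (SE 0.16, edgeR adjusted p = 8.4e-06). Like chata and slc18a3a it was called lower. ache, the other further acetylcholine gene tested, was not called, with 156 ± 22.2 CPM in TP and 171 ± 24.2 CPM in vehicle larvae. Its log2 fold change was -0.13 (edgeR adjusted p = 0.27), and 0.23 with TMM factors. The listed paralogs of chata, slc18a3a and slc5a7a, namely chatb, slc18a3b and slc5a7b, were not analysed here. Among the monoamine genes th2, the paralog of th, fell by 1.81 (SE 0.29, edgeR adjusted p = 2.7e-05), with 0.257 ± 0.127 CPM in TP and 0.9 ± 0.252 CPM in vehicle larvae. slc18a2, the vesicular monoamine transporter, fell by 1.14 (adjusted p = 4.6e-05). Of the tph2 paralogs tph1a fell by 1.39 (adjusted p = 6.1e-06), whereas tph1b had a log2 fold change of 0.14 (SE 0.19, adjusted p = 0.56). slc6a4b, the paralog of slc6a4a, was at -0.70 (SE 0.37, adjusted p = 0.11).

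Among the GABA genes the call of slc32a1, the vesicular transporter for GABA and glycine, rested on single libraries. It was at 4.4 ± 1.23 CPM in TP and 8.69 ± 6.7 CPM in vehicle larvae, with 24.8 CPM in the highest vehicle library, a log2 fold change of -0.98 (adjusted p = 0.0072 from edgeR). Without vehicle library 1 it was -0.55 (adjusted p = 0.011), and leaving out any of 8 libraries in turn ended the call. The GABA transporters slc6a1a and slc6a1b were at -0.88 and -1.10 (adjusted p = 7.1e-04 and 0.005 from edgeR), and slc6a1b at -0.71 (adjusted p = 0.011) without vehicle library 1. Leaving out any of 6 libraries in turn ended the call of slc6a1b. gad1a, the paralog of gad1b, was at -0.57 (adjusted p = 0.019). With TMM factors 0 of the 9 further GABA genes were lower and 2 were higher, where 16.5% of all genes were lower and 15.9% higher.

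Among the glutamate genes the paralogs of slc17a6b were all negative. slc17a7a fell by 0.94 (SE 0.13, edgeR adjusted p = 6.5e-06), slc17a7b by 0.87 (adjusted p = 0.0017) and slc17a8 by 0.79 (adjusted p = 0.0018). The calls of slc17a7b and slc17a8 ended with TMM factors (adjusted p = 0.025 and 0.079). slc17a6a was at -0.88 (adjusted p = 0.012), and at -0.43 without vehicle library 1. The largest called decreases of the glutamate list were in glula, a glutamine synthetase (-1.25, adjusted p = 3.7e-09), and the glutamate transporters slc1a7a (-1.45, adjusted p = 7.0e-05) and slc1a8b (-1.39, adjusted p = 6.9e-08 from edgeR). For glycine slc6a9, the GlyT1 paralog of slc6a5, was at 189 ± 20.1 CPM in TP and 246 ± 33 CPM in vehicle larvae, a log2 fold change of -0.37 that was close to the median of all genes (adjusted p = 8.2e-04 from edgeR, 0.76 with TMM factors). amt of the glycine cleavage system was at -0.34 (adjusted p = 0.0092) and at 0.01 with TMM factors. The call of amt ended when any of 11 libraries was left out in turn.

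Most transcription factors known to set transmitter identity fell. Of 43 listed, 38 were tested, and 35 of these were lower and 0 higher (edgeR), or 92.1% lower against the 41.9% of all genes. With TMM factors 28 were lower and 0 higher, against 16.5% and 15.9% of all genes. Their median log2 fold change was -1.37, or -1.02 relative to all genes, against -0.65 for the 10 transmitter genes. The difference between the lists was not tested. RNA came from whole larvae, so the cells in which these factors fell were not identified. In 24 of the 38 every TP library was under every vehicle library, which held for 20.9% of all genes.

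Among the factors of cholinergic motor neurons isl1 was at 8.02 ± 1.14 CPM in TP and 39.3 ± 4.68 CPM in vehicle larvae (SD, n = 8), a log2 fold change of -2.29, and isl2b and mnx2b were at -1.84 and -1.35 (adjusted p = 7.2e-13, 1.5e-09 and 0.0022 from edgeR). For the dopaminergic lineage nr4a2a and nr4a2b, the Nurr1 genes that in mammals switch on the gene for tyrosine hydroxylase, were at -2.17 and -1.77, and otpb at -2.70 (edgeR, adjusted p at or under 3.4e-06). Of the GABAergic factors dlx1a, dlx6a and tal2 were at -2.21, -1.62 and -1.72. Of the glutamatergic factors eomesa, barhl2 and tlx3b were at -2.11, -1.83 and -1.66. Of those of inhibitory interneurons of hindbrain and spinal cord lhx1a, lhx5 and pax2a were at -2.42, -1.50 and -1.37. Each of these 9 genes was called lower (edgeR, adjusted p at or under 2.2e-04). mnx2b lost its call with TMM factors (adjusted p = 0.017).

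Cell type markers moved beside these genes, and their part in the results was not tested. With library totals 41.9% of all genes were lower and 4.59% higher, against which the counts of each list are set. Of 23 neuron markers tested, 8 were lower and 0 higher (edgeR), or 34.8% lower, under the share of all genes, with a median of -0.63. All 23 had counts in every library. inab and nefmb, which encode neuronal intermediate filaments, and gap43 of growing axons fell, with log2 fold changes of -1.61, -1.42 and -1.20, and nefmb was at -0.92 without vehicle library 1. With TMM factors 4 of the 23 were lower and 1 higher, where 16.5% of all genes were lower and 15.9% higher. Of 9 radial glia markers 7 were lower (77.8%, against 41.9% of all genes), led by sox2 (-1.61), s100b (-1.51) and aqp1a.1 (-1.29). The 2 not called were gfap, at -0.14 (edgeR adjusted p = 0.24), and slc1a2b, at -0.81 (edgeR adjusted p = 0.08). Of the 9, slc1a2b and slc1a3b are also in the glutamate list. Of 9 oligodendrocyte markers 5 were lower (55.6%, not far from the 41.9% of all genes), among them olig2 (-1.35), mbpb (-0.83) and sox10 (-0.57). The other 4 were not called, and the highest of them, plp1b, was at 0.30 (edgeR adjusted p = 0.048). With TMM factors 2 of the 9 were lower and 1, plp1b, was higher, where 16.5% of all genes were lower and 15.9% higher. In contrast, 11 of 12 skeletal muscle markers were higher and 0 lower, against 4.59% and 41.9% of all genes. Their median log2 fold change was 0.31, and the highest values were those of mylpfb (0.60), tnnt3a (0.51) and pvalb1 (0.37). Liver markers were split with library totals, with 4 of 12 lower (33.3%, under the 41.9% of all genes) and 3 higher (against 4.59% of all genes). Among them rbp4 was at -1.82, fgb at -0.60 and tfa at 0.43. With TMM factors 1 of the 12 liver markers, rbp4, was lower and 5 were higher, where 16.5% of all genes were lower and 15.9% higher. fgb was then at -0.24 and not called (edgeR adjusted p = 0.032). Muscle markers together made up 51103 to 60633 CPM in TP and 40340 to 49800 CPM in vehicle libraries.

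**Figure D5:**
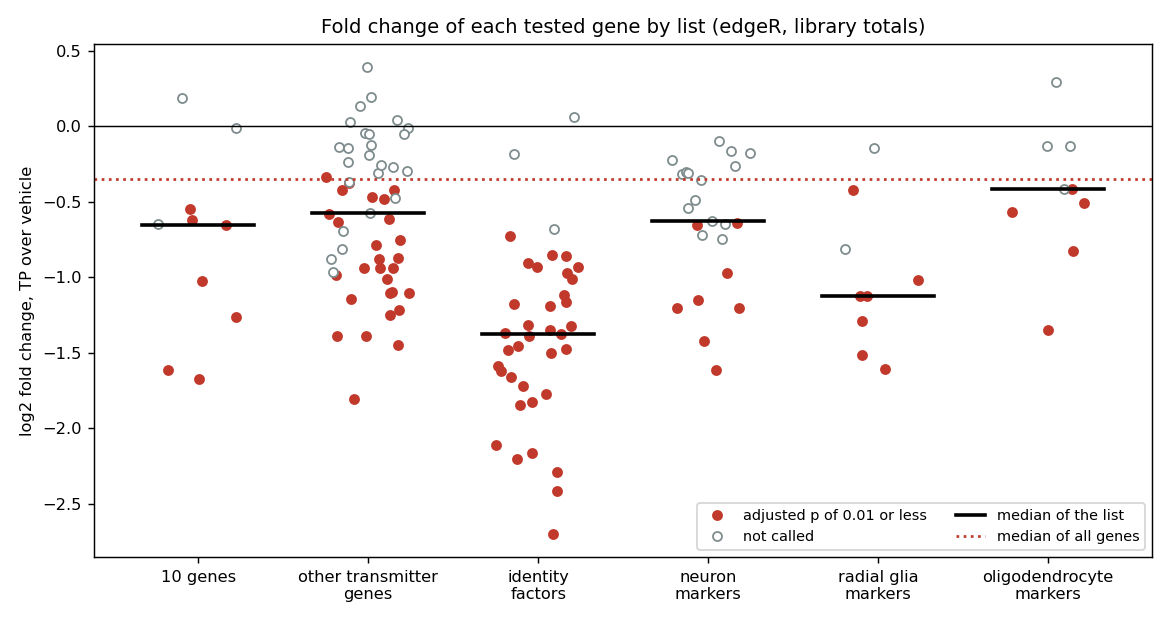
Log2 fold change (TP over vehicle, edgeR with library totals, y axis) of each tested gene in the 10 transmitter genes, the 53 other transmitter genes, the identity factors and the neuron, radial glia and oligodendrocyte markers. Filled points have an adjusted p of 0.01 or less, open points were not called, the bar is the median of the list and the dotted line that of all genes, -0.35. The identity factors have the lowest median, -1.37, and no filled point lies above 0.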

How the data were processed

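RNA of 16 pools was sequenced by the authors from stranded total RNA libraries as paired reads. Per the paper's methods and the submitters' notes, reads were checked with FastQC, aligned to Ensembl transcript sequences (GRCz10) with Bowtie2 and handled with SAMtools, and the paper tested scaled log2 values with limma. Not given in the sources used here are tool versions, the use of strand, and the placing of reads that match several transcripts. The authors deposited raw counts for 57264 transcripts, not normalized, and every count was even.

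Here counts were summed by gene ID for 31812 genes. The 209 transcripts with no gene ID (0.220% to 0.282% of the counts) counted towards the library totals but not towards any gene. Genes were matched by the deposited symbol or the current symbol of their ID, which 82.1% of IDs had. TP and vehicle were compared by edgeR's quasi-likelihood test (edgeR 4.0.16, R 4.3.3) over all genes left by its expression filter, with library totals as the only scaling, Benjamini-Hochberg adjustment and a threshold of 0.01. Each standard error was taken as |log2 fold change| / √F. Ratios of genes used a pseudocount of 1 and a 2-sided exact permutation test with scipy 1.17.1. Replicates of a group differed by more than sampling noise (chi-square per degree of freedom of at least 4.31 in TP and 3.9 in vehicle pairs). The fit was tested on simulated counts with few genes changed, as many up as down, so this did not test the choice of scaling.

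The 10 genes and the lists were chosen with earlier results of these data known. Outside the 10, the text names their paralogs and up to 3 called genes of largest change per list and transmitter. It also names ache, the identity factors mnx2a, lmx1ba and tlx1, and the glial markers gfap, slc1a2b, slc1a3b and plp1b. Alternatives were TMM factors, DESeq2 1.42.0, limma 3.58.1 on scaled log2 counts, totals without ribosomal and mitochondrial transcripts, other filters on low counts, halved counts, the most abundant transcript only, the last digit of the library title as a replicate block, libraries of title digits 1 to 4 or 5 to 8, each library left out in turn, and an adjusted p of 0.05. Leaving out vehicle libraries 1 and 2 and comparing transcript shares were chosen after seeing the data. Listed genes such as slc6a3 and slc18a3b were not analysed here, nor were imaging or qPCR.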

Additional observations from a re-analysis of the deposited data

Results flagged for a closer look

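In 5 of 38 groups of 8 values looked at (10 genes and 9 ratios in TP and in vehicle libraries), 1 library lay far from the others, where chance gives about 1 in 20 groups. In 4 of the 5 it was vehicle library 1, so these are not independent of each other. It held 3.46 CPM of th, with the next vehicle library at 2.26 CPM, and 31.1 CPM of slc6a5, with the next at 14.4 CPM. Its ratio of slc6a5 to slc17a6b was 0.878, with the next at 0.635, and its ratio of slc6a5 to gad1b was 0.205, with the next at 0.101. Vehicle library 6 held 15.5 CPM of slc6a4a, with the next lowest at 19.1 CPM. No TP library stood apart in this way for any of the 10 genes or 9 ratios. The rule was applied to CPM and plain ratios, and log2 values can change which libraries stand apart. TP library 1 held 15.7 CPM of ddc, with the next lowest TP library at 24.7 CPM. The causes were not tested.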

How the results depend on the processing

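For the log2 fold changes of the 10 genes, 256 of 280 alternative values kept their direction and their side of the threshold, 9 lost and 4 gained the call, and 11 changed sign. The sign changed for ddc, which was at 0.34 with TMM factors and with DESeq2, at 0.09 with totals without ribosomal and mitochondrial transcripts, at 0.29 among titles ending in 5 to 8, at 0.15 without vehicle libraries 1 and 2, and between -0.06 and 0.09 with each library left out in turn, and for tph2, at -0.19 among titles ending in 1 to 4. In that subset tph1b was at -0.26, the ratio of gad1b to gad2 at 0.06 and that of slc6a5 to gad1b at -0.39. amt was at 0.01 with TMM factors and 0.02 with DESeq2. Of the 10 genes, 1 was higher with TMM factors, with DESeq2 and among titles ending in 5 to 8, against 0. Their median was -0.30 with TMM factors, -0.29 with DESeq2 and -0.91 among titles ending in 1 to 4, against -0.65. Of the 53 other transmitter genes, 16 were lower with TMM factors and 17 with DESeq2, against 28. The number higher, 0 with library totals, was 6 with TMM factors and with DESeq2, 2 among titles ending in 5 to 8 and without vehicle libraries 1 and 2, and 1 at an adjusted p of 0.05. Of the neuron markers, 4 were lower with TMM factors, 2 with DESeq2 and 1 among titles ending in 1 to 4, against 8. The share of all genes called lower was itself 16.5% with TMM factors, against 41.9% with library totals. The share called higher was 15.9%, against 4.59%. Shares of all genes in the other settings were not counted, and the title subsets had only 4 pools a group. With each library left out in turn, 6 to 8 of the 10 genes, 23 to 29 other transmitter genes, 33 to 36 identity factors and 7 to 9 neuron markers were lower, 4 to 5 ratios differed, and the median ran from -0.72 to -0.62. No label says whether title digits pair the libraries. Correlations of same-digit libraries ran from -0.139 to 0.224, with 3 of 8 over 0.1 and 3 of 8 highest with their own digit. These mixed values do not settle it. With the digit as a replicate block, 7 of the 10 genes were lower, 1 other transmitter gene was higher and 0 ratios were called. For the ratios, 8 pairs leave little room to pass 0.01 after adjustment. Apart from the scaling, the causes were not tested. th had as few as 10 counts in a library, which limits its precision.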
